A study of Homo sapiens with 6 samples.

Results

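The NR4A orphan nuclear receptors are 3 genes, NR4A1 (Nur77), NR4A2 (Nurr1) and NR4A3 (NOR1), and all 3 were among the 26025 genes of the table. They were selected on the comparison reported here, as receptors whose transcripts were high after norepinephrine (NE), so their own NE and Ctrl values are a description and carry no test. The RNA came from NCI-H1299, a human lung carcinoma line in long use (non-small cell type), in 2 groups of 3 libraries. Both groups were first held in DMEM for 8 to 12 h as a starvation step and then kept for 48 h in RPMI-1640 with 2% fetal bovine serum, with 10 µM NE in the NE group and vehicle in the Ctrl group. The labels name the vehicle as DMSO in the titles and as PBS in the treatment text. The samples are replicates of 1 cell line, and nothing states that they came from separate cultures or days, so the p-values measure the spread between these libraries.

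NR4A proteins are nuclear receptors whose ligand pocket is filled by their own side chains, so their activity depends largely on how much of the protein a cell makes. The genes are immediate-early genes: cAMP, calcium and growth factor signals switch them on quickly and usually briefly, through CREB, MEF2 and related factors bound near the start site. NE acts on β-adrenergic receptors, which raise cAMP through the Gs protein and release the catalytic subunit of protein kinase A to phosphorylate CREB. Once made, NR4A proteins bind the NBRE motif alone or a paired motif as dimers, and NR4A1 and NR4A2 can also pair with the retinoid X receptor (RXR).

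The stretch before the start site of NR4A3 is shown because CREB binds such stretches when these genes respond to cAMP. The core of its cAMP response element (CRE) is TGACGTCA, and the 5 letters TGACG are its short form. RefSeq promoters on GRCh38 (the hg38 build) were matched for 2 of the 3 members, NR4A1 and NR4A3. For NR4A3 the window of 250 bases before the start is chr9:99821635-99821884 on the forward strand, with capitals marking TGACG on either strand.
NR4A3: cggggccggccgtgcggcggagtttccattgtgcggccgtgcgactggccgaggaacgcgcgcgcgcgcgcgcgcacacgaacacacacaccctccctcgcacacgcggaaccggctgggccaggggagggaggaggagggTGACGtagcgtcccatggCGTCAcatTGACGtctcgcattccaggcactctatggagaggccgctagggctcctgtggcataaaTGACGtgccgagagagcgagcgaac
The window held 4 copies of TGACG and no full TGACGTCA. The copies began 109, 91, 83 and 25 bases before the start, the one at 91 on the reverse strand. Among 35116 RefSeq promoters of the same length, 21.2% held at least 1 TGACG on either strand, 0.236% (83) held at least 4, and 1.65% held TGACGTCA. Over the 15931 promoters of genes with enough counts to test, these shares were higher, at 27.6%, 0.395% (63) and 2.52%. The 2 RefSeq windows of NR4A1, chr12:52022582-52022831 and chr12:52037465-52037714 on the forward strand, held neither TGACG nor TGACGTCA. Both lie before starts other than that of the canonical NR4A1 transcript, whose window is not reported here, so they do not describe that start. These matches describe letters, and binding of a factor was not measured.

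The libraries held between 16852751 and 17979206 reads on genes. Ctrl replicate 3 stood apart by the number of genes at 0, 7305 against 4829 and 4833 in the other Ctrl libraries and 3954 to 4416 in NE. Without it the log2 differences of NR4A1, NR4A2 and NR4A3 were 2.85, 6.53 and 5.92. Of the markers of the line, KRT8, KRT18 and VIM were high. The epithelial list summed to 27658 to 38810 normalized counts in Ctrl and 11914 to 14054 in NE, nearly all from KRT8 and KRT18. KRT19 had means of 7.17 in Ctrl and 2.61 in NE, and EPCAM and CDH1 had means of at most 2.55 in both groups. Of the mesenchymal or stromal list only VIM was high. COL1A1 had means of 23.5 in Ctrl and 9.20 in NE, and COL1A2, PDGFRB and DCN of at most 11.05 in both groups. The summed lung lineage, leukocyte and endothelial markers stayed at or under 10.7, 14.8 and 87.2 in every library.

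In every NE library all 3 NR4A genes were above every Ctrl library, and NR4A2 and NR4A3 had the 2 largest log2 differences of the 15013 genes tested. NR4A1 stood at rank 46. Values are normalized counts, that is, reads scaled by a size factor for each library, and log2 differences are NE minus Ctrl on log2(normalized count + 1), with the standard error (SE) of limma's fit. In a bulk library a change in the number of expressing cells and a change in RNA per cell cannot be told apart.

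NR4A2 (ENSG00000153234, chr2:156324437-156342348, reverse strand), the member best known for its role in midbrain dopamine neurons, gave 57.6, 64.3 and 63.7 normalized counts with vehicle and 5675, 5702 and 5780 in the NE libraries. The groups were far apart and the libraries of each group close together. The mean went from 61.9 ± 3.71 (SD, n = 3) to 5719 ± 54.4 (SD, n = 3), a 92.4-fold ratio, and the ratios of single NE to single Ctrl libraries ran from 88.3 to 100.3. The log2 difference was 6.51 (SE 0.111). The NE libraries varied by 0.952% around their mean, against 1.29% that counting reads alone would give.

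NR4A3 (ENSG00000119508, chr9:99821855-99866891, forward strand), best known for its fusions in sarcomas, gave 36.7, 32.1 and 34.3 normalized counts in Ctrl and 2362, 2044 and 2031 in NE. NE replicate 1 was the highest of its group, and the spread within the NE group was 8.73%, against 2.11% from counting. The mean went from 34.4 ± 2.25 to 2146 ± 187 (SD, n = 3 each), a 62.4-fold ratio with library pairs between 55.4 and 73.5, and the log2 difference was 5.92 (SE 0.137).

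NR4A1 (ENSG00000123358, chr12:52022832-52059507, forward strand), the founding member of the family, gave 127, 112 and 104 normalized counts in Ctrl and 842, 884 and 878 in NE. The NE libraries lay close together and every one was above the Ctrl libraries. The mean went from 114.2 ± 11.6 to 868.1 ± 22.9 (SD, n = 3 each), a 7.60-fold ratio with library pairs between 6.64 and 8.51, and the log2 difference was 2.92 (SE 0.133). A correction for the GC content of transcripts, which is 60.2% for NR4A1, 49.1% for NR4A2 and 46.3% for NR4A3, moved these log2 differences to 3.52, 6.61 and 5.81.

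The rises of the 3 genes were unequal. The log2 difference of NR4A2 exceeded that of NR4A1 by 3.59, a factor of 12.0, and that of NR4A3 exceeded it by 3.002, a factor of 8.01, while NR4A2 and NR4A3 were 0.59 apart, a factor of 1.50. Together the genes took 211, 201 and 206 reads in the Ctrl libraries, between 11.4 and 12.1 RPM (reads scaled to the library's total on genes). In the NE libraries they took 8985, 8910 and 9509 reads, between 519 and 552 RPM.

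Levels of different genes were compared as RPKM, reads per kilobase of merged exons scaled in the same way. In Ctrl cells NR4A1 (0.868 ± 0.0767, SD, n = 3) and NR4A2 (0.836 ± 0.0580) overlapped, and NR4A3 (0.302 ± 0.0206) lay below both. In NE cells the order was NR4A2 (85.0 ± 4.37), NR4A3 (20.7 ± 1.03) and NR4A1 (7.27 ± 0.474), with no overlap between neighbours. On this scale the NE libraries of NR4A2 ran from 80.6 to 89.4, a wider spread than in normalized counts. As a share of the family's reads per kilobase, NR4A2 was 37.7%, 43.3% and 44.1% in the Ctrl libraries and 73.8%, 75.7% and 76.1% in the NE libraries. NR4A1 went the other way, from a mean of 43.3% ± 3.17 to 6.43% ± 0.233, and NR4A3 moved from 15.1% ± 0.823 to 18.4% ± 1.43 (SD, n = 3 each). The lengths matter here: NR4A1 has 7295 bases of merged exons but a canonical transcript of 2485 bases, against 4111 and 3472 for NR4A2 and 6314 and 5604 for NR4A3. By canonical length NR4A1 was 2.55 and NR4A2 0.990 RPKM in Ctrl cells, no longer alike, and in NE cells NR4A1 (21.4, libraries from 19.8 to 22.5) and NR4A3 (23.3, from 22.3 to 24.6) overlapped, while NR4A2 (100.6) lay above both.

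Among 44 nuclear receptor genes in the table, the family moved from the middle of the range towards its top. By RPKM, NR4A2 went from rank 24 in Ctrl to rank 1 in NE, NR4A3 from 28 to 3 and NR4A1 from 23 to 12. NR2F6, an orphan receptor of the COUP group, ranked 1 in Ctrl (36.1 RPKM) and 2 in NE (21.9 RPKM). In NE cells NR4A3, between 19.8 and 21.8 RPKM over the libraries, overlapped NR2F6 (20.2 to 22.8) and the COUP receptor NR2F2 (19.1 to 20.1), so its rank is not separated from theirs, while NR2F6 and NR2F2 did not overlap each other. By canonical length the NE ranks were 1 for NR4A2, 5 for NR4A3 and 6 for NR4A1.

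The other genes around the receptors were read against all genes tested, of which 7.47% were upregulated and 6.55% downregulated (limma, Benjamini-Hochberg adjusted p under 0.05 and a log2 difference of at least 1 either way), with a median log2 difference of 0.01. Of 29 other nuclear receptors tested, 5 were upregulated and 2 downregulated, with a median of 0.42. ESRRG, an oestrogen-related receptor, rose by a log2 difference of 2.58 (adjusted p = 0.0289) from 8.38, 5.19 and 0 to 32.6, 21.3 and 15.5 normalized counts, all low values. RORB (1.45, adjusted p = 0.000796), RORA (1.34, adjusted p = 0.0103) and NR1D2 (1.19, adjusted p = 0.00207), receptors of the circadian loop and its relatives, rose as well. NR3C1, the glucocorticoid receptor, was the fifth, at 1.12 (adjusted p = 0.000173), and is named here after its value was seen. VDR, the vitamin D receptor, fell by 1.68 on the log2 scale (adjusted p = 0.000207) and ESRRA by 1.10 (adjusted p = 0.00148). With the GC correction 0 of these receptors were upregulated and 1, VDR, was downregulated. Without NE replicate 1, 3 were upregulated, and the number downregulated rose to 4 when Ctrl replicate 3 was dropped and went to 1 when either of the other Ctrl libraries was dropped. ESRRG had log2 differences of 2.31, 2.61 and 2.82 without each NE library in turn (adjusted p from 0.0596 to 0.120), 2.03 with the GC correction (adjusted p = 0.116) and 1.60 without Ctrl replicate 3 (adjusted p = 0.0119).

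Neither RXR partner reached the fold threshold, and both were lower in NE cells by adjusted p alone, as were 25.5% of all tested genes. RXRA gave 557, 499.8 and 464 normalized counts in Ctrl and 347, 347 and 281 in NE, a log2 difference of -0.64 (adjusted p = 0.00483), and RXRB went from a mean of 1257 to 884, a log2 difference of -0.50 (adjusted p = 0.0226). Neither pair of groups overlapped. Of RXR genes 2 of 3 were listed, and RXRG was not analysed here.

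Of 17 coregulators and turnover factors of NR4A proteins, 2 were upregulated and 0 downregulated, with a median log2 difference of 0.46. NCOA2, a p160 coactivator, rose by a log2 difference of 1.10 (adjusted p = 0.000559) and PPARGC1A, the coactivator PGC-1α, by 1.23 (adjusted p = 0.0102). By adjusted p alone, 10 of the 17 were higher and 5 lower, where 24.6% of all tested genes were higher and 25.5% lower by that criterion. With the GC correction 0 were upregulated, and 1 was upregulated without Ctrl replicate 3 (PPARGC1A lost) or NE replicate 1 (NCOA2 lost). Without Ctrl replicate 3, 1 was downregulated.

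The route from the adrenergic receptor to CREB and MEF2 held 34 tested genes, of which 2 were upregulated and 2 downregulated, with a median log2 difference of 0.03. CREM, a CREB relative whose short ICER forms repress CRE genes, gave 236, 224 and 258 normalized counts in Ctrl and 2506, 2359 and 2351 in NE, a log2 difference of 3.33 (SE 0.111, adjusted p = 4.65e-07). Gene counts do not separate its activating and repressing isoforms. PKIA, an inhibitor of protein kinase A, rose by a log2 difference of 1.15 (adjusted p = 0.00108). HDAC7, a class IIa deacetylase that represses MEF2 at NR4A1, fell by 1.11 on the log2 scale (adjusted p = 0.000231). With the GC correction CREM remained called, and PKIA (0.49, adjusted p = 0.00684) and HDAC7 (-0.53, adjusted p = 0.00141) no longer reached the fold threshold. Without Ctrl replicate 3, 4 genes of this route were upregulated and 4 downregulated. CREB1 itself had a log2 difference of 0.54 (adjusted p = 0.0095), under the fold threshold.

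The other immediate-early genes moved in both directions. Of 28 other immediate-early genes tested, 3 were upregulated and 10 downregulated, with a median log2 difference of -0.63. DUSP1, a phosphatase that shuts off MAP kinases, gave 383, 372 and 539 normalized counts in Ctrl and 3209, 3100 and 3121 in NE, a log2 difference of 2.88 (SE 0.148, adjusted p = 5.24e-06), close to that of NR4A1. The AP-1 genes FOSL2 (1.42, adjusted p = 0.00017) and FOS (1.16, adjusted p = 0.00259) were the other two. FOS stayed low, at 57.0 to 81.7 normalized counts in Ctrl and 125 to 185 in NE. The largest fall was that of FOSL1, another AP-1 subunit, by 2.52 on the log2 scale (adjusted p = 0.000121), from 14279, 14260 and 7290 to 1703, 2242 and 2049. JUN, their partner, fell by 2.08 (adjusted p = 6.35e-06), the phosphatase gene DUSP2 by 1.87 (adjusted p = 0.000731) and MAFF, a small Maf factor, by 1.42 (adjusted p = 9.91e-05), all on the log2 scale. EGR1, a zinc finger factor of the same class, did not pass, at 383 in Ctrl and 437 in NE (log2 difference 0.18, adjusted p = 0.27). After GC correction 6 genes were downregulated and 3 upregulated.

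**Figure D1:**
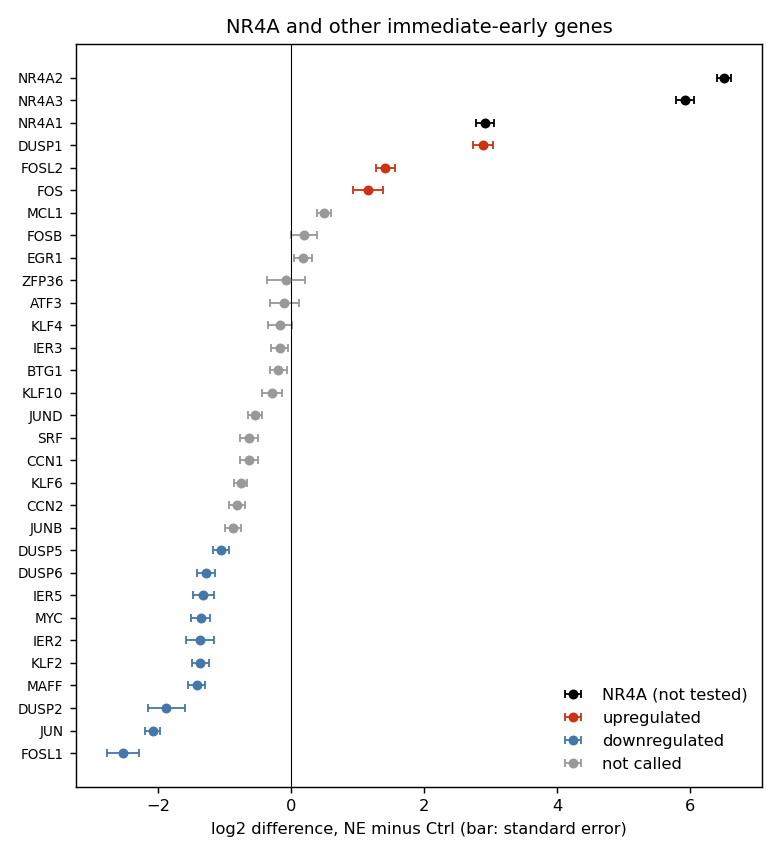
Log2 differences (NE minus Ctrl, with SE) of the 3 NR4A genes in black, as a description without a test, and of the 28 other immediate-early genes tested, in red where upregulated (3) and blue where downregulated (10). The NR4A genes and DUSP1 (2.88) lie at the upper end and FOSL1 (-2.52) at the lower.

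RefSeq promoters were matched for 21 of these 28 genes. All 3 upregulated genes had at least 1 TGACG within 250 bases of a start, as did 3 of the 7 downregulated genes matched and 7 of the 11 others. The full TGACGTCA was found in 1 gene of each kind, the upregulated DUSP1, the downregulated MAFF and the uncalled JUND. In the upstream route CREM, upregulated, held it at 1 or more of its 7 starts, as did PRKAR1A, which was not called. JUND and PRKAR1A are named for this motif after it was counted. Over all upregulated genes 27.9% of promoters held TGACG, against 27.6% over all tested genes.

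Genes described as NR4A targets in other tissues were called in both directions. Of 29 listed, 22 were in the table and 12 had enough counts to test, of which 1 was upregulated and 2 downregulated, with a median log2 difference of 0.28. These are 8.33% and 16.7% of the 12, beside 7.47% and 6.55% of all tested genes. IKZF2, the lymphoid factor Helios, rose by a log2 difference of 1.30 (adjusted p = 0.00396), from 39.4 to 65.7 normalized counts in Ctrl to 98.7 to 156 in NE. The cell cycle genes CCND1 (cyclin D1) and E2F1 fell by 1.30 (adjusted p = 0.000205) and 1.25 (adjusted p = 6.89e-05) on the log2 scale. With the GC correction the log2 differences were 0.63 for IKZF2 (adjusted p = 0.0534), -0.99 for CCND1 (adjusted p = 0.00189) and -0.62 for E2F1 (adjusted p = 0.00225), so CCND1 and E2F1 passed by adjusted p but not by fold. The dopamine neuron genes TH and SLC18A2, targets of NR4A2, had means under 10 in both groups and were not tested, as was STAR, a steroidogenic target of NR4A1. The adrenal and pituitary targets POMC, CYP17A1, CYP11B2, CYP21A2 and HSD3B2 were not analysed here. The NBRE, AAAGGTCA, was present in 0.795% of the promoters of upregulated genes, 0.492% of those of downregulated genes and 0.722% of those of all tested genes, on either strand of the same 250-base window.

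The NR4A genes lie on 3 chromosomes, and their neighbours were called in both directions. Of 30 tested protein-coding neighbours, 5 on each side of each gene, 3 were upregulated and 3 downregulated, with a median log2 difference of 0.11. These counts are read against the 7.47% and 6.55% of all tested genes, and no locus was tested by itself. The upregulated neighbours were 3 of the 10 around NR4A2: GPD2, a mitochondrial glycerol-3-phosphate dehydrogenase 92.9 kb away (1.35, adjusted p = 0.000393), the activin receptor gene ACVR1C at 1184 kb (1.75, adjusted p = 0.000748) and the potassium channel gene KCNJ3 at 1466 kb (2.14, adjusted p = 0.0363), the last from 0.980 to 9.42 normalized counts in Ctrl and 10.7 to 32.6 in NE. GPD2 rose from 970, 881 and 1367 normalized counts to 3117, 2627 and 2375. The downregulated neighbours were 3 of the 10 around NR4A1. They were FIGNL2 at 174 kb, which fell by 1.62 on the log2 scale (adjusted p = 0.0484), and the keratin genes KRT7 at 173 kb, by 1.40 (adjusted p = 0.0063), and KRT8 at 838 kb, by 1.06 (adjusted p = 0.000604), where KRT8 has many near-identical pseudogenes that can share its reads. After GC correction 1 neighbour was upregulated and 0 downregulated. Without Ctrl replicate 3, 5 neighbours were upregulated, and without Ctrl replicate 1 or NE replicate 3 only 1 was downregulated. FIGNL2 lost its call in 10 of the alternatives, including without any one library, and KCNJ3 without Ctrl replicate 2, NE replicate 1 or NE replicate 3. The nearest genes to NR4A1 were ATG101, an autophagy gene 9.74 kb away (-0.78, adjusted p = 0.0146, under the fold threshold), and ACVR1B, 25.8 kb away (0.01, adjusted p = 0.976). Next to NR4A3 stood STX17, 39.8 kb away (0.76, adjusted p = 0.00532), and SEC61B, 591 kb away (-0.69, adjusted p = 0.0085).

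Antisense genes overlap 2 members. NR4A1AS, across the 3′ end of NR4A1, was at 0 in all Ctrl libraries and at 0.988, 2.91 and 6.40 normalized counts in NE. STX17-DT, which spans NR4A3, had means of 18.4 in Ctrl and 12.3 in NE (log2 difference -0.45, adjusted p = 0.511). The strand setting of the counting was not given in the sources used here, so reads of the overlapping pairs cannot be told apart.

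Likeness of profile was measured as the distance between log2 values over the 6 libraries, each gene centred on its own mean. NR4A2 and NR4A3 were each other's nearest gene among the 15013 tested, at 0.783, and NR4A1 was 4.41 from NR4A2 and 3.69 from NR4A3. The values were not scaled, so a gap in the size of the rise counts in the distance. NR4A2 and NR4A3 were chosen on this comparison and had the 2 largest rises, so their nearness is a description and no test of likeness. Beyond the pair, the nearest to both were a long non-coding RNA (ENSG00000234292), ETNPPL, a phospholyase of phosphoethanolamine, and ATP1B3-AS1. Those 3 were near 0 in Ctrl, with means of 2.78, 1.05 and 0.327 normalized counts, and reached means of 94.7, 44.8 and 22.6 in NE. The mucin MUC13 came next for NR4A2 (3.13) and DMBT1, a scavenger receptor family protein, for NR4A3 (2.48).
NR4A1 had nearer company. GRAMD1B, a sterol transfer protein, was at a distance of 0.233, followed by MAP7, a microtubule-associated protein (0.351), the secreted hormone STC1 (0.378), the ESCRT subunit CHMP1B (0.386) and the glutamate receptor GRIK2 (0.416). STC1 went from 1438, 1429 and 1529 normalized counts to 13361, 11829 and 11893, a log2 difference of 3.07. These genes were picked for their likeness on the same libraries, so their values are a description.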

How the data were processed

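Total RNA of NCI-H1299 cells was sequenced in 6 libraries, 3 Ctrl and 3 NE. Per the labels, reads were aligned with HISAT2 (2.0.5) to hg38 and counted with featureCounts (1.5.0-p3). The deposited values (signal, titled FPKM by the authors) were reads scaled by a library size factor, and every value came back as a whole read within 0.01. Columns were matched to groups by their letters. 25813 of 26025 genes matched GENCODE 44, which gave exon lengths, GC content and neighbours on hg38.

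Genes with a mean of at least 10 (15013) were fitted with limma 3.58.1 (R 4.3.3; lmFit, eBayes with trend) on log2(value + 1), which understates changes of low genes. A gene was called at a limma p of under 0.05 after Benjamini-Hochberg adjustment and a log2 difference of at least 1 either way, and the script was tested on simulated counts. RPKM used the recovered reads. Alternatives were pseudocounts of 0.1 and 5, no filter, a mean of at least 50, TMM scaling, quantile normalization, a GC spline with 5 degrees of freedom, the replicate block, edgeR 4.0.16 or DESeq2 1.42.0 for recovered reads, no fold criterion and leaving out each library.

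The members and lists were chosen with earlier results of these data known. Named genes were the members, up to 4 called genes of each list in each direction with the largest log2 differences, the 5 nearest profiles of each member, called and nearest neighbours, and overlapping genes. NR2F6, NR2F2, NR3C1, CREB1 and EGR1 were added after their values were seen. Promoter sequence is from RefSeq (GRCh38.p14), and motifs were searched on both strands. Some items are not reported here.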

Additional observations from a re-analysis of the deposited data

How the results depend on the processing

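The NR4A log2 differences kept their direction under all alternatives, within 2.85 to 2.997 for NR4A1, 6.46 to 6.54 for NR4A2 and 5.85 to 5.97 for NR4A3 when 1 library was left out. Larger moves were 3.52 for NR4A1 and 6.61 for NR4A2 with the GC correction, 6.59 for NR4A2 with quantile normalization, and 6.42 for NR4A2 and 5.77 for NR4A3 with a pseudocount of 5. The NR4A2 share of the family in NE was 65.5% by reads per gene and 69.2% per kilobase of canonical transcript, a scale chosen after seeing the data, and 74.8% to 75.9% without 1 NE library.

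Counts of called genes depended most on GC correction and on the fold criterion. With the GC correction 549 genes were upregulated and 346 downregulated, against 1121 and 983. Among the lists it left 0 coregulators, 1 upstream gene, 0 other nuclear receptors and 1 neighbour upregulated, and 1 upstream gene, 0 described targets, 6 immediate-early genes, 1 other nuclear receptor and 0 neighbours downregulated. Without the fold criterion 3693 and 3828 genes were called up and down. The lists then had 10 coregulators, 9 upstream genes, 3 targets, 10 other nuclear receptors and 10 neighbours up, and 2 RXR genes, 5 coregulators, 11 upstream genes, 16 immediate-early genes, 11 other nuclear receptors and 7 neighbours down. Quantile normalization gave 2 targets up and 1 down, and a minimum mean of 50 left 3 other nuclear receptors up and 1 neighbour down. The cause was not tested for any of these, though a higher minimum tests fewer genes.

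With each library left out in turn, 816 to 1609 genes were upregulated and 777 to 1512 downregulated, the highest downregulated count without Ctrl replicate 3. The lists ranged from 1 to 2 coregulators, 2 to 4 upstream genes, 3 to 6 other nuclear receptors and 2 to 5 neighbours up, and from 0 to 1 coregulators, 2 to 4 upstream genes, 1 to 4 other nuclear receptors and 1 to 3 neighbours down.

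Same-numbered libraries did not deviate together (correlations -0.163, 0.0799 and -0.151). With deviations taken from means of only 3 libraries, this cannot show whether the numbers pair libraries, and the main fit used no pairing. The fit with the replicate block called 1049 genes up and 924 down, left the NR4A log2 differences at 2.92, 6.51 and 5.92, and cost 1 named gene, FIGNL2, its call. Of 38 named genes other than the members, 15 kept their call in all 16 alternatives and 5 more in the 15 that tested them, since a minimum mean of 50 left 10 of the 38 untested. None changed direction where tested, and 18 lost their call with the GC correction. With between 16852751 and 17979206 reads a library, Ctrl values of NR4A3 rest on 31 to 35 reads.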
